A study of Mus musculus with 12 samples.

Results

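Constitutive proteasome genes were followed in the livers of 12 female mice given testosterone or its vehicle. Members were the genes whose array probe sets carried a single gene symbol of the form Psma, Psmb, Psmc, Psmd, Psme, Psmf or Psmg followed by a number, leaving out the immunoproteasome subunits Psmb8, Psmb9 and Psmb10. This rule found 45 of the 12393 genes with such a probe set. Of these, Psmc3ip, a cofactor of meiotic recombination, and Psme3ip1, a partner of an activator, share only the name and were kept apart, which left 43 proteasome genes on 80 probe sets. They were 15 core subunits, 17 subunits of the base and lid, 3 activators, 1 inhibitor and 7 assembly chaperones. Above the filter on dim signals lay 42 of the 43. The exception was Psma8, the alpha subunit of the testis proteasome, with signals of 2.75 to 10.7. Psme2, the partner of Psme1 in its ring, shares a probe set with Psme2b and was not analysed here, and neither was Psmb11, the thymus core subunit.

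RNA came from whole livers of female C57BL/6 mice, an inbred strain, each hybridised to its own Affymetrix array, and the 4 groups held 3 mice each. One pair of groups was taken at the end of 3 weeks of injections under the skin, 2 per week, of either 100 µl sesame oil (vehicle) or 0.9 mg testosterone in the same volume of oil. The other pair had the same injections and was then left without them; the labels give 12 weeks for this withdrawal and the series' design text 3 weeks, so its length is left unstated here. Mice of all 4 groups had thus received the oil, and their age is not given in the sources used here. The comparisons ask which transcripts testosterone changes while it is given and which differ after it is stopped. Nothing in the labels ties a mouse of one group to a mouse of another, and the design text calls individual mice the biological replicates.

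The proteasome degrades proteins that carry ubiquitin chains. Its core particle is a barrel of stacked rings, in which the alpha subunits form the gated ends and the beta subunits the proteolytic chamber. The regulatory particle caps the barrel: its base holds a ring of ATPases that unfold the substrate and scaffold subunits that bind ubiquitin, and its lid removes the ubiquitin chain. Other caps, the Psme activators, open the gate without ubiquitin, and dedicated chaperones assemble the rings. In liver, as in most tissues, these genes are expressed constantly, and their transcription is known to be raised by the factor Nfe2l1 when proteasome activity falls.

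Signals below are the deposited linear array signals, given for mice 1, 2 and 3 of a group in that order, which is only a naming order. Changes are log2 differences between group means ± the standard error of a limma fit over 7217 genes, with p-values adjusted by Benjamini-Hochberg over all of them. A gene is called, and said to have risen or fallen, at an adjusted p under 0.05. Median array signals lay between 20.03 and 22.44. Beta-actin is probed at both ends of its transcript, and the 3' over 5' signal, which rises as RNA degrades, was 1.52 ± 0.108 (SD, n = 3) in vehicle mice and 2.11 ± 0.0769 (SD, n = 3) in testosterone mice at the end, the groups not overlapping (two-sided exact permutation p = 0.1, the smallest that 3 mice against 3 allow). After withdrawal it was 1.77 ± 0.154 against 1.62 ± 0.179 (exact permutation p = 0.2). The same ratio of Gapdh was 0.763 ± 0.0316 in vehicle and 0.930 ± 0.0254 (SD, n = 3) in testosterone mice at the end, again without overlap (exact permutation p = 0.1), and 0.797 ± 0.0493 and 0.844 ± 0.0499 after withdrawal (exact permutation p = 0.3). Within the testosterone mice both ratios were lower after withdrawal than at the end (exact permutation p = 0.1 each). Hepatocyte markers were high in every mouse, with signals over 7 genes summing to between 29781 and 37223, and of these 0 were called at the end by limma (1 at an unadjusted p under 0.05). Kupffer cell and macrophage markers summed over 12 genes to 4013 to 6313 in vehicle and 2864 to 3534 in testosterone mice at the end, where 7 of 12 fell and 0 rose. Endothelial markers had 1 of 7 lower, while stellate cell, neutrophil and B cell markers had 0 of 5, 2 and 1 called by limma (2, 0 and 0 at an unadjusted p under 0.05). T and NK cell and cholangiocyte markers all lay below the filter. The erythroid marker Alas2 rose at both times, while Hba-a1, the other erythroid marker on the array, lay below the filter (0.545 to 6.74 over all mice). Pancreatic markers summed to 33.8 to 885 in the testosterone mice after withdrawal against 19.5 to 39.6 in their controls. The part of other cell types in the changes below was not tested, and in whole liver fewer cells of a type and less RNA per cell cannot be told apart.

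At the end of treatment, 8 of the 42 proteasome genes tested rose with testosterone and 2 fell. The genes that rose were mostly subunits of the regulatory particle: Psmc5, Psmc2, Psmd1 and Psmd2 of the base and Psmd12 and Psmd11 of the lid, with the core subunit Psmb3 and the activator Psme4. Those that fell were the inhibitor Psmf1 and the chaperone Psmg4. The changes were small, from a log2 change of -0.49 to 0.58 among called genes. Among all genes tested, 9.42% rose and 8.01% fell, against 19.0% and 4.76% of the proteasome genes. The median log2 change was 0.12 over the 42 genes and 0.04 over all genes tested, and 29 of the 42 changes lay above zero. That was 69.0% of the proteasome genes, against 56.1% of all genes tested. Testosterone and vehicle mice did not overlap in 16 proteasome genes that were higher and 4 that were lower, against 20.6% and 15.1% of all genes. An unadjusted p under 0.05 was found for 19 of the 42, against 2313 of all 7217 genes tested. The number called was 6 without testosterone mouse 1, 4 without testosterone mouse 3 and between 7 and 12 without any 1 other mouse. It was 0 when the actin ratio was added to the fit, where 78 of all genes tested were called. In that fit 8 members and 798 of all 7217 genes had an unadjusted p under 0.05. The ratio did not overlap between the groups at the end, so its part and that of testosterone cannot be told apart there.

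**Figure D1:**
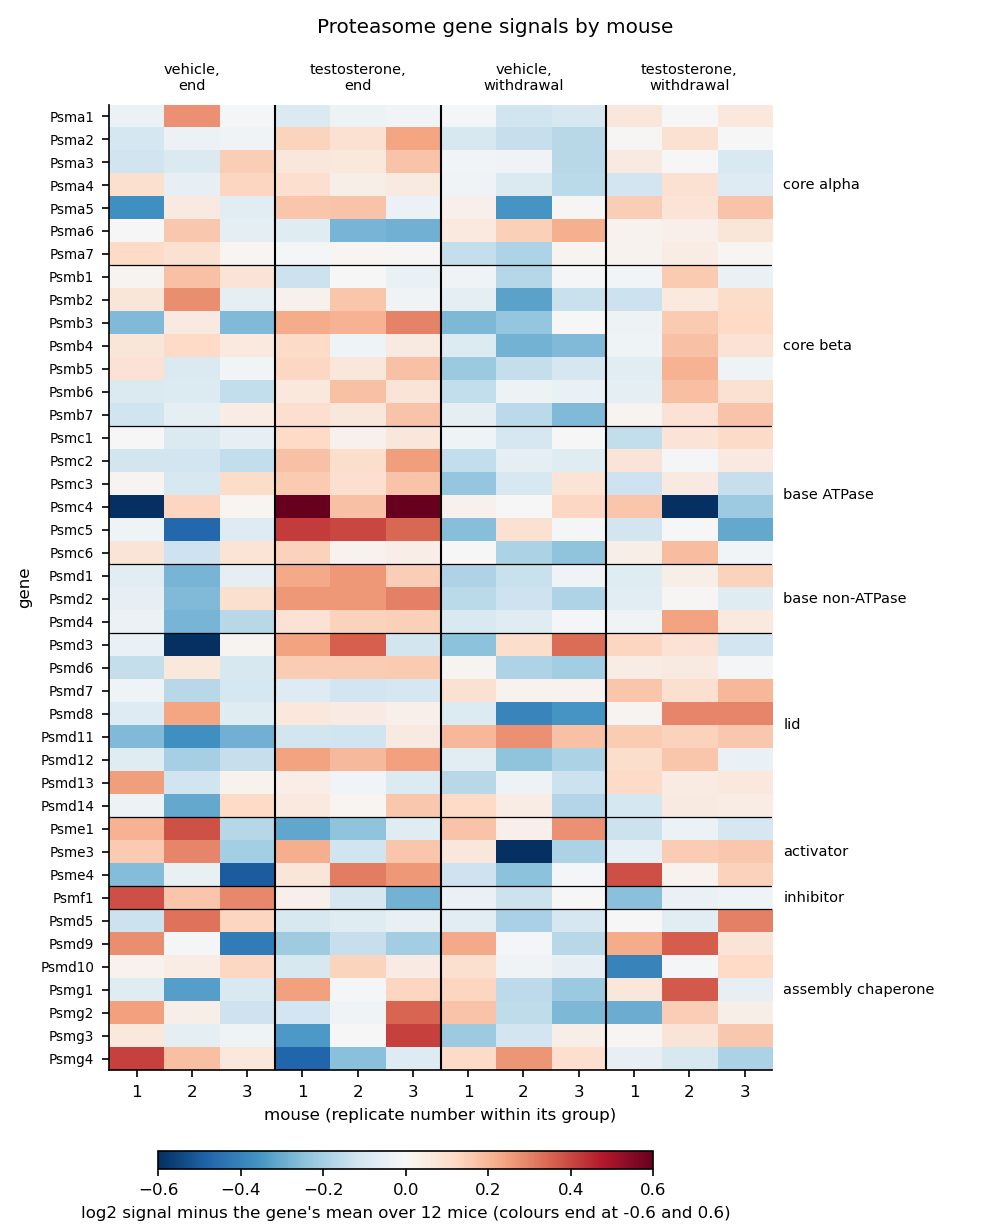
Signals of the 42 proteasome genes tested, in rows by class, in each of the 12 mice. Colour is the log2 signal minus the gene's mean over all mice, red above and blue below, with darkest colours at 0.6 and beyond; Psmc5, for instance, read 341, 337 and 324 in testosterone mice at the end and 184 to 272 in all other mice.

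**Figure D2:**
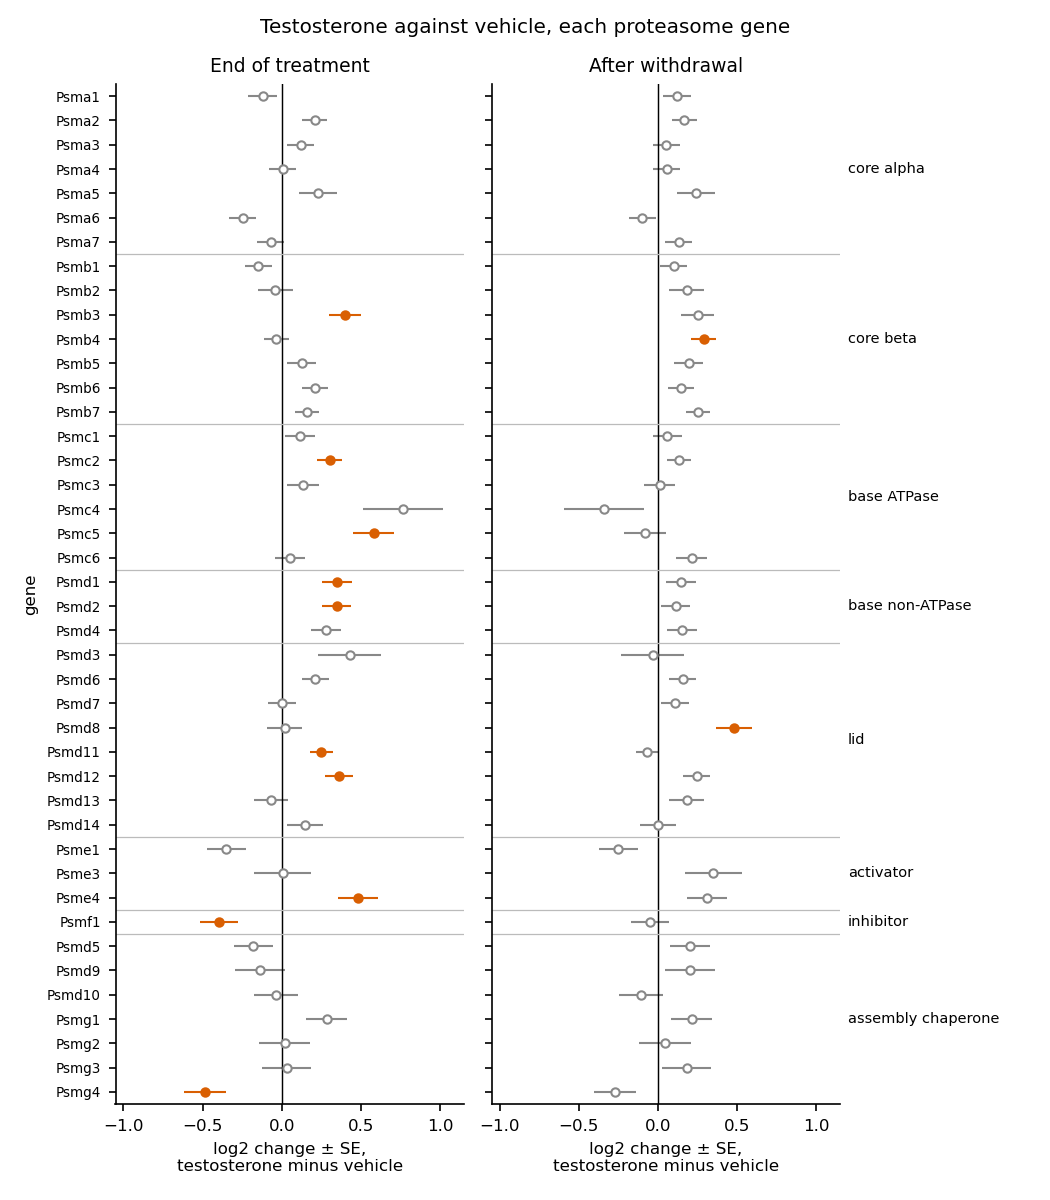
Log2 change with testosterone for each proteasome gene at the end of treatment (left) and after withdrawal (right), with bars of 1 standard error of the limma fit. Filled orange points are called at an adjusted p under 0.05: 10 genes on the left and Psmb4 and Psmd8 on the right.

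The core particle had 1 of 14 tested genes higher and 0 lower at the end, with a median log2 change of 0.06, and 8 of the 14 lay above zero. That gene was Psmb3, a structural subunit of the beta ring. It read 729, 909 and 729 in the vehicle mice and 1021, 1011 and 1076 in the testosterone mice. All 3 testosterone mice lay above all vehicle mice, and vehicle mouse 2 was the nearest to them. Psmb3 rose 1.32-fold (log2 change 0.40 ± 0.10, adjusted p = 0.0145). It was no longer called without vehicle mouse 1 (0.35, adjusted p = 0.0641), vehicle mouse 3 (0.35, adjusted p = 0.0505) or testosterone mouse 3 (0.37, adjusted p = 0.0503), and a second probe set of the gene gave -0.06. Nor was it called on the mean of its probe sets (0.17, adjusted p = 0.277), with no filter on dim genes (0.40, adjusted p = 0.0505) or when the fit held the actin ratio (0.22).

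The alpha subunits, which form the outer rings, had 0 of 7 called by limma, and 2 had an unadjusted p under 0.05. Psma2 read 515, 540.3 and 545 in the vehicle mice and 608, 590.0 and 653 in the testosterone mice, without overlap (log2 change 0.21 ± 0.08, adjusted p = 0.0788). Psma6 went the other way, with 998, 1118 and 959 in the vehicle mice and 951, 823 and 819 in the testosterone mice (log2 change -0.25 ± 0.09, adjusted p = 0.0591), and its other 2 probe sets gave 0.02 and 0.05. Psma6 was called lower without vehicle mouse 3 (-0.29, adjusted p = 0.049) or testosterone mouse 1 (-0.32, adjusted p = 0.0406). The remaining alpha subunits had log2 changes between -0.12 (Psma1) and 0.23 (Psma5).

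The catalytic subunits of the beta ring were Psmb5, with chymotrypsin-like activity, Psmb6, with caspase-like activity, and Psmb7, with trypsin-like activity. None of these 3 was called at the end. Psmb5 read 605, 538 and 565 in the vehicle mice and 622, 598 and 644 in the testosterone mice. The groups overlapped (0.13 ± 0.09, 95% interval -0.07 to 0.32, adjusted p = 0.364). Psmb6 read 591, 592 and 565 in the vehicle mice and 655, 708 and 661 in the testosterone mice. Its testosterone mice all lay above the vehicle mice (0.21 ± 0.08, interval 0.03 to 0.39, adjusted p = 0.0931). Psmb7 read 1385, 1443 and 1551 in the vehicle mice and 1616, 1579 and 1694 in the testosterone mice, again without overlap (0.16 ± 0.08, interval -0.01 to 0.32, adjusted p = 0.169), and 0.36 when the fit held the actin ratio. Among the structural beta subunits, Psmb1, Psmb2 and Psmb4 had changes of -0.15, -0.04 and -0.03. Second probe sets of Psmb1 and Psmb4 gave 0.52 and 0.21, neither called.

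The base of the regulatory particle had 4 of 9 genes higher and 0 lower at the end, and all 9 changes lay above zero, with a median of 0.30. The count was 1 without testosterone mouse 1 and 2 without testosterone mouse 3. Psmc5, an ATPase of the unfolding ring, showed the largest change among called genes. It read 250.3, 184 and 242 in the vehicle mice and 341, 337 and 324 in the testosterone mice. The lowest testosterone mouse lay well above the highest vehicle mouse. Psmc5 rose by 49.6% (log2 change 0.58 ± 0.13, adjusted p = 0.00791), and it kept this call in each of 12 fits that left out 1 mouse, with adjusted p-values up to 0.0312. When the fit held the actin ratio the change was 0.54, not called. Psmc2, another ATPase of the ring, read 489, 486 and 475 in the vehicle mice and 595, 567 and 628 in the testosterone mice. The vehicle mice of this gene lay close together, below every testosterone mouse. Psmc2 rose 1.23-fold (log2 change 0.30 ± 0.08, adjusted p = 0.0154), and its second probe set also rose (0.45). It was no longer called without testosterone mouse 1 (0.30, adjusted p = 0.0503) or testosterone mouse 3 (0.27, adjusted p = 0.0593), or when the fit held the actin ratio (0.21).

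Psmd1 and Psmd2 are the large scaffold subunits of the base, and Psmd2 carries docking sites for proteins that deliver ubiquitinated substrates. Psmd1 read 469, 406 and 473 in the vehicle mice and 577, 589.9 and 546 in the testosterone mice. Vehicle mouse 2 was the lowest, and the groups did not overlap. Psmd1 rose 1.27-fold (log2 change 0.35 ± 0.09, adjusted p = 0.0188), but was not called without vehicle mouse 2 (0.28, adjusted p = 0.0646), testosterone mouse 1 (0.34, adjusted p = 0.0628) or testosterone mouse 2 (0.32, adjusted p = 0.0711). Psmd2 read 529, 457 and 586 in the vehicle mice and 657, 656 and 677 in the testosterone mice. Its testosterone mice were tightly grouped above spread-out vehicle mice. It rose 1.27-fold (log2 change 0.35 ± 0.09, adjusted p = 0.0174), but was not called without vehicle mouse 2 (0.25, adjusted p = 0.0601), testosterone mouse 1 (0.35, adjusted p = 0.0503) or testosterone mouse 3 (0.33, adjusted p = 0.0533). When the fit held the actin ratio the changes of Psmd1 and Psmd2 were 0.54 and 0.48, not called.

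Of the base genes that were not called, Psmc4 had the largest measured change of all 42 genes. It read 264, 548 and 505 in the vehicle mice and 773, 566 and 819 in the testosterone mice. Vehicle mouse 1 stood low and testosterone mouse 2 was close to the vehicle mice, although the groups did not overlap. The change of 0.77 ± 0.26 had an adjusted p = 0.0516, and the second probe set of Psmc4, also an ATPase gene, gave 0.17. When the fit held the actin ratio the change of Psmc4 was -0.06, on the other side of zero. When every probe set was tested on its own, its brightest one was called (adjusted p = 0.048). Psmc4 was called higher without vehicle mouse 2 (0.96, adjusted p = 0.0312), vehicle mouse 3 (0.90, adjusted p = 0.0443), testosterone mouse 2 (0.93, adjusted p = 0.0468), withdrawal testosterone mouse 1 (0.77, adjusted p = 0.0375) or withdrawal testosterone mouse 2 (0.77, adjusted p = 0.0319). Psmd4, a ubiquitin receptor of the base, read 396, 335 and 362 in the vehicle mice and 431, 447 and 448 in the testosterone mice, without overlap (log2 change 0.28 ± 0.09, adjusted p = 0.0521). A second probe set of Psmd4 gave -0.02, and the gene was called without vehicle mouse 1 (0.35, adjusted p = 0.0457), withdrawal testosterone mouse 1 (0.28, adjusted p = 0.0425) or withdrawal testosterone mouse 2 (0.28, adjusted p = 0.043). Psmc6 had 0.05 on its brightest probe set and 0.48 and 0.84 on the other 2, none of them called. Psmc1 (0.12) and Psmc3 (0.13) were not called.

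The lid had 2 of 8 genes higher and 0 lower at the end, with a median of 0.18 and 7 of 8 changes above zero. Psmd12 is a scaffold subunit of the lid. It read 404, 369 and 386 in the vehicle mice and 502, 485 and 503 in the testosterone mice. The groups were separated by more than either group's own range. Psmd12 rose 1.29-fold (log2 change 0.36 ± 0.09, adjusted p = 0.0115) and, like Psmc5, kept its call without any 1 mouse, with adjusted p-values up to 0.0438; when the fit held the actin ratio the change was 0.43, not called. Psmd11, which clamps the lid to the core particle, read 995, 926 and 979 in the vehicle mice and 1109, 1099 and 1240.2 in the testosterone mice. Its groups did not overlap, and testosterone mouse 3 was the highest. It rose 1.19-fold (log2 change 0.25 ± 0.07, adjusted p = 0.0289). It was no longer called without vehicle mouse 1 (0.27, adjusted p = 0.0514), vehicle mouse 2 (0.22, adjusted p = 0.0784), testosterone mouse 1 (0.27, adjusted p = 0.0536) or testosterone mouse 3 (0.19, adjusted p = 0.116). Its other 3 tested probe sets gave 0.65 (called), 0.13 and 0.11. Nor was it called on the mean of its probe sets (0.21, adjusted p = 0.14), without probe sets that can match several transcripts (0.11, adjusted p = 0.486), with each array centred on its median (0.28, adjusted p = 0.0558), in a fit of the end groups alone (0.25, adjusted p = 0.0686), with no variance trend (0.25, adjusted p = 0.0764) or when the fit held the actin ratio (0.26).

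Psmd6, a lid subunit, read 536, 617 and 553 in the vehicle mice and 658, 657 and 659 in the testosterone mice. Its testosterone mice were nearly identical and above every vehicle mouse, but the change of 0.21 ± 0.09 was not called (adjusted p = 0.104). Its second probe set, tested on its own, rose by 0.56 ± 0.13 (adjusted p = 0.00833 over all probe sets tested). Psmd3 had a change of 0.43 with vehicle mouse 2 at 75.1 against 124 and 129 in the other vehicle mice (adjusted p = 0.152). Psmd14, the enzyme that removes the ubiquitin chain, gave 0.15 with overlapping groups, and Psmd7, Psmd8 and Psmd13 gave 0.00, 0.02 and -0.07.

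**Figure D3:**
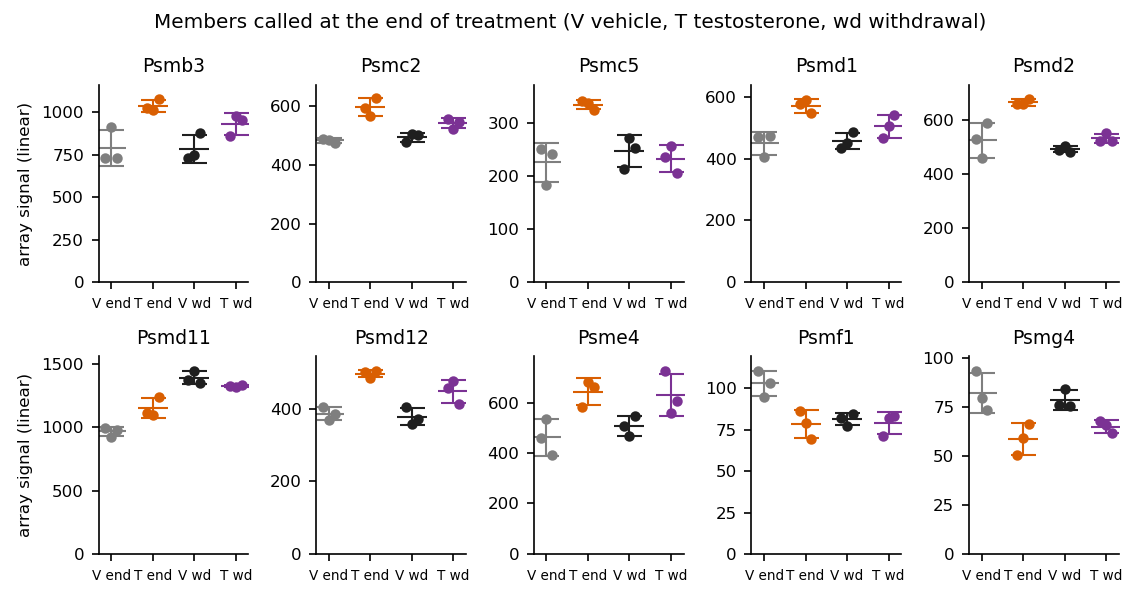
Linear array signals of the 10 proteasome genes called at the end of treatment, 1 point per mouse, with the mean and SD of each group of 3. In every panel the testosterone mice at the end (T end) do not overlap the vehicle mice at the end (V end), above them in 8 genes and below them in Psmf1 and Psmg4.

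Seen together, the base genes stood apart in the testosterone mice at the end. The mean log2 signal of the 9 base genes, relative to each gene's mean over all mice, was 0.25, 0.17 and 0.24 in these mice and -0.12, -0.18 and -0.02 in their vehicle controls. It was -0.12, -0.08 and -0.04 in vehicle and -0.03, -0.03 and -0.04 in testosterone mice after withdrawal, so the 3 highest of the 12 mice were the testosterone mice of the end. For the 8 lid genes the testosterone mice of both times lay above the vehicle mice of their own time, with 0.04 to 0.08 against -0.20 to -0.05 at the end and 0.07 to 0.12 against -0.06 to -0.02 after withdrawal. The 7 core beta genes had their lowest values in the vehicle mice after withdrawal (-0.19 to -0.12). Over all genes tested the same measure stayed within -0.06 and 0.05. The count of base and lid genes that rose at the end was 6 of 17. It was 2 without testosterone mouse 1, 3 without testosterone mouse 3 and 4 without vehicle mouse 2, while 14 to 16 of the 17 changes lay above zero in every fit that left out 1 mouse. When the fit held the actin ratio it was 0 of 17, with 16 of 17 above zero and a median of 0.31 against 0.25 without the ratio. These class levels are descriptions and have no test of their own.

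**Figure D4:**
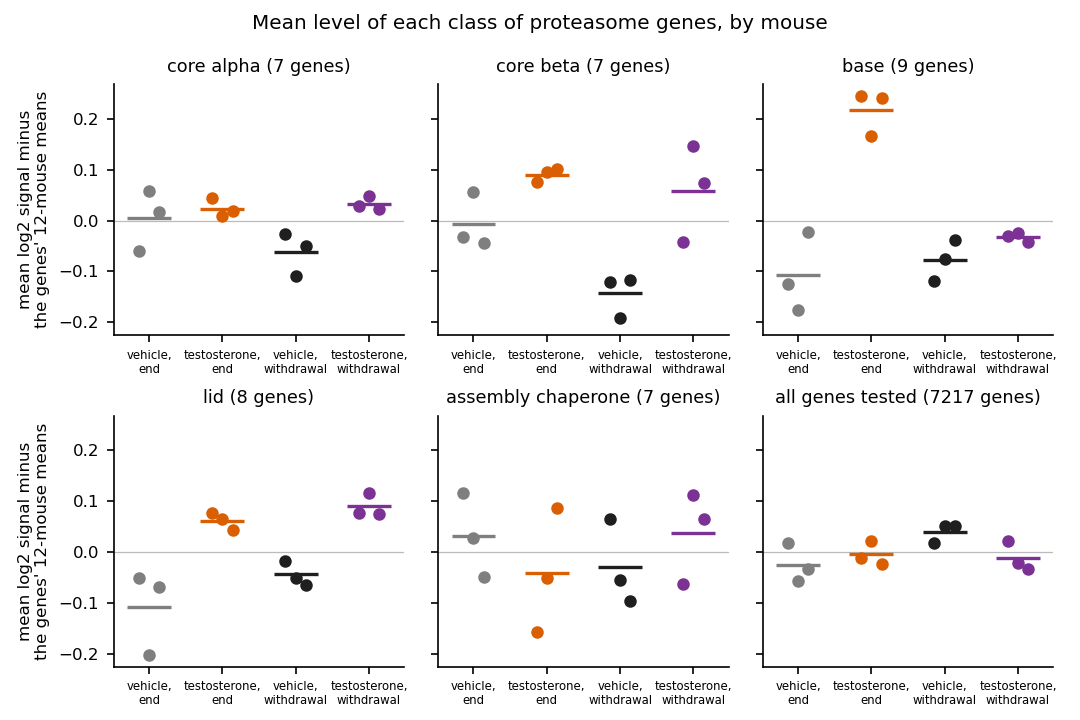
Mean log2 signal of each class of proteasome genes in each mouse, relative to the genes' means over 12 mice, with a bar at the mean of each group. The 9 base genes read 0.17 to 0.25 in the testosterone mice at the end and below zero in all others, while the mean over all 7217 genes stayed within -0.06 and 0.05.

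Sequence before the start of a gene was set beside these results, since several called genes belong to a single complex. RefSeq promoters (GRCm38.p6) were at hand for 35 of the 42 genes tested, and the 250 bases before the start were searched on both strands. The core of the antioxidant response element, TGACNNNGC, which Nfe2l1 and its relatives bind, was found in 5 of 35 (14.3%), against 11.5% of all 27025 genes with an entry. TGANTCA, a core bound by AP-1 and related factors, was found in 1 of 35 (2.86%), against 7.82%. The NF-Y box CCAAT was found in 12 of 35 (34.3%), against 37.5%. Matches of different patterns may share bases. Of the 8 genes that rose at the end, 1 held TGACNNNGC and 2 held CCAAT. The promoters of 3 of them are shown, the largest change in base, lid and core, in lower case with matches in capitals and the strand of the gene. Psmc5 lies at chr11:106255935-106256184 on the plus strand and held no match; Psmd12 at chr11:107479278-107479527 on the plus strand held TGACNNNGC on the opposite strand at bases -247 to -239; Psmb3 at chr11:97703184-97703433 on the plus strand held CCAAT at -85 to -81 and at -43 to -39, counted back from the start. A match is a description of these letters only.
Psmc5: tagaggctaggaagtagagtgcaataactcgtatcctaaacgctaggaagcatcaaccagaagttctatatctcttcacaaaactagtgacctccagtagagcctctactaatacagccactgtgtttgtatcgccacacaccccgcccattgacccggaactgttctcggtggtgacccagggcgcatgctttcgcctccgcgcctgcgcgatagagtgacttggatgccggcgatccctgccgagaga
Psmd12: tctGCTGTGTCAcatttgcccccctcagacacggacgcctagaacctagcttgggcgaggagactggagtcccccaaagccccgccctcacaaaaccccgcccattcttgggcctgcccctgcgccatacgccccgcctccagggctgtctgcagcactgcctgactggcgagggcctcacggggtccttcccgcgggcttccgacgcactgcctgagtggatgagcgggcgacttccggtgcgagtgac
Psmb3: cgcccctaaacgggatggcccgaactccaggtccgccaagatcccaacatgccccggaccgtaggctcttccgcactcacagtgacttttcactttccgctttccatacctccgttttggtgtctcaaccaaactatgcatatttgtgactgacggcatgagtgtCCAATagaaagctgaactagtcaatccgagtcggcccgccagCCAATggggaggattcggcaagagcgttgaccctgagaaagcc

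The 3 activators with a value did not move together. Psme4 caps the core particle in the nucleus. It read 461, 536 and 391 in the vehicle mice and 582, 683 and 663 in the testosterone mice. All testosterone mice lay above the vehicle mice. Psme4 rose 1.40-fold (log2 change 0.48 ± 0.12, adjusted p = 0.0159), but its other 2 probe sets gave 0.23 and -0.27, and it was no longer called without vehicle mouse 3 (0.37, adjusted p = 0.0633), testosterone mouse 2 (0.44, adjusted p = 0.0662) or testosterone mouse 3 (0.46, adjusted p = 0.0512). The probe set used is one whose probes can also match other transcripts; without such probe sets the gene was not called (0.23, adjusted p = 0.142), nor on the mean of its probe sets (0.14, adjusted p = 0.266), with no filter on dim genes (0.48, adjusted p = 0.0666) or when the fit held the actin ratio (0.06).

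Psme1, a subunit of the activator ring that interferon gamma induces, read 609, 688 and 469 in the vehicle mice and 424, 446 and 501 in the testosterone mice. Vehicle mouse 3 lay within the range of the testosterone mice, and the change was not called (log2 change -0.35 ± 0.12, adjusted p = 0.0633). Without that mouse Psme1 was called lower (-0.50, adjusted p = 0.00688), and with the actin ratio in the model its change was -0.53, not called. Psme3, the nuclear activator that forms a ring by itself, read 79.2, 87.2 and 61.7 in the vehicle mice and 82.6, 65.5 and 79.7 in the testosterone mice and did not pass the test (0.01 ± 0.18, interval -0.38 to 0.39, or 0.31 with the ratio). In the same mice, interferon response genes summed over 17 genes to 3715 to 4638 in vehicle and 3148 to 3528 in testosterone mice, and 9 of the 17 fell while 0 rose; their part in the values of Psme1 was not tested.

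The inhibitor Psmf1, which blocks core particles in the test tube, read 110.4, 94.9 and 103 in the vehicle mice and 86.5, 79.0 and 69.4 in the testosterone mice. The groups did not overlap, and vehicle mouse 1 was the highest of all 12 mice. Psmf1 fell 1.32-fold (log2 change -0.40 ± 0.12, adjusted p = 0.0337). Its other probe sets gave 0.34 and -0.07, and it was no longer called without vehicle mouse 1 (-0.34, adjusted p = 0.118), vehicle mouse 3 (-0.39, adjusted p = 0.0717), testosterone mouse 2 (-0.41, adjusted p = 0.0789) or testosterone mouse 3 (-0.31, adjusted p = 0.128). Nor was it called on the mean of its probe sets (-0.06, adjusted p = 0.807), with each array centred on its median (-0.37, adjusted p = 0.0641), in a fit of the end groups alone (-0.40, adjusted p = 0.0675) or when the fit held the actin ratio (-0.07).

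Among the 7 assembly chaperones 1 fell and 0 rose at the end, with a median of -0.03. Psmg4, which pairs with Psmg3 to build the alpha ring, read 93.1, 79.6 and 73.4 in the vehicle mice and 50.4, 59.0 and 66.5 in the testosterone mice. All testosterone mice lay below the vehicle mice, and testosterone mouse 1 was the lowest. Psmg4 fell 1.40-fold (log2 change -0.49 ± 0.13, adjusted p = 0.0214), but was not called without vehicle mouse 1 (-0.39, adjusted p = 0.095), testosterone mouse 1 (-0.38, adjusted p = 0.101) or testosterone mouse 2 (-0.50, adjusted p = 0.0542). Psmg4 was also not called in a fit of the end groups alone (-0.49, adjusted p = 0.0563) or when the fit held the actin ratio (-0.64). Its partner Psmg3 was spread widely, with 84.0, 107 and 142 in the testosterone mice and 111, 103 and 104 in the vehicle mice (0.03). Psmg1, which pairs with Psmg2, gave 0.28 ± 0.13 without overlap of the groups (adjusted p = 0.149), and Psmg2 gave 0.02. The chaperones of the base, Psmd5, Psmd9 and Psmd10, gave -0.18, -0.14 and -0.03 with overlapping groups. Psme3ip1, which is no subunit, gave 0.16, and Psmc3ip lay below the filter.

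Many proteasome genes are read by more than 1 probe set, and these did not always go the same way. For 17 genes more than 1 probe set passed the filter, and at the end the signs differed in 8 of the 17. No gene had probe sets called in opposite directions in any of the 5 comparisons. When all 65 tested probe sets of the members were tested on their own, 12 were higher and 2 lower at the end. No share over all probe sets is given beside these counts, so they are not read as a result about the members.

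After withdrawal, 2 of the 42 genes were higher in testosterone mice and 0 were lower, against 2.74% and 3.26% of all genes tested, which is near the share for all genes. The median log2 change was 0.14 over the 42 genes and -0.04 over all genes, and 33 of the 42 lay above zero. That was 78.6% of the proteasome genes, against 44.3% of all genes tested. The groups did not overlap in 14 genes that were higher and 3 that were lower, against 11.2% and 14.7% of all genes. An unadjusted p under 0.05 was found for 8 of the 42, against 1485 of all 7217 genes tested. With each array centred on its median, which moves the median of all genes to 0.05, and the split of all genes from 198 higher and 235 lower to 264 and 167, the members' median was 0.22 and 37 of 42 lay above zero, with 1 called. The number called by limma was 0 without withdrawal vehicle mouse 2 or 3 or withdrawal testosterone mouse 2 or 3, and 1 without vehicle mouse 1 or 3 or testosterone mouse 1, 2 or 3 of the end. Of the 7 hepatocyte markers 1 was also higher here and 0 were lower, with a median of 0.17 and 4 at an unadjusted p under 0.05. That marker was Apoa1, at 5729 to 6274 in vehicle and 6508 to 7384 in testosterone mice (log2 change 0.25 ± 0.07, adjusted p = 0.0343). The part of such a shift in the members' values was not tested.

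The genes that were called after withdrawal were Psmd8 and Psmb4. Psmd8, a lid subunit, read 592, 477 and 491 in the vehicle mice and 635, 769 and 769 in the testosterone mice. Vehicle mice 2 and 3 were low and testosterone mice 2 and 3 high, while mice 1 of both groups lay close together. Psmd8 was 1.39-fold higher (log2 change 0.48 ± 0.11, adjusted p = 0.0186), against a change of 0.02 at the end. It was no longer called without withdrawal vehicle mouse 2 (0.42, adjusted p = 0.0968), withdrawal vehicle mouse 3 (0.44, adjusted p = 0.0815), withdrawal testosterone mouse 2 (0.43, adjusted p = 0.0862) or withdrawal testosterone mouse 3 (0.43, adjusted p = 0.0843). Psmd8 was also not called with no filter on dim genes (0.48, adjusted p = 0.0777), with no variance trend (0.48, adjusted p = 0.0501) or when the fit held the actin ratio (0.41). Psmb4, a structural subunit of the beta ring, read 1206, 1047 and 1062 in the vehicle mice and 1252, 1441 and 1355 in the testosterone mice. Vehicle mouse 1 came close to the lowest testosterone mouse. It was 1.22-fold higher (log2 change 0.29 ± 0.08, adjusted p = 0.0454), but was called in only 3 of 12 fits that left out 1 mouse: those without vehicle mouse 2 of the end or without mouse 1 of either withdrawal group. In the other 9 the adjusted p was 0.0523 to 0.186. Its second probe set gave 0.02, and it was not called under 9 of the 12 other settings (adjusted p = 0.0554 to 0.293), among them the mean of its probe sets (0.16, adjusted p = 0.293) and no variance trend (0.29, adjusted p = 0.118).

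In the core particle 13 of 14 changes lay above zero after withdrawal, with a median of 0.16, and this held for all 7 beta genes (median 0.19). These are values of the brightest probe sets. A second probe set of Psmb1 gave -0.47, while those of Psmb3 and Psmb4 gave 0.27 and 0.02, none called. Psmb7 read 1448, 1345 and 1253 in the vehicle mice and 1524, 1600.1 and 1697 in the testosterone mice, without overlap, and just missed the threshold (log2 change 0.25 ± 0.08, adjusted p = 0.0663); it was called without withdrawal vehicle mouse 1 (0.31) or withdrawal testosterone mouse 1 (0.29). Psmb5 read 489, 516 and 532 in the vehicle mice and 546, 659 and 559.8 in the testosterone mice (0.19 ± 0.09, interval 0.00 to 0.39). Testosterone mouse 2 was the highest of the group. Psmb6 read 565, 615 and 609 in the vehicle mice and 605, 711 and 669 in the testosterone mice, with overlapping groups (0.15 ± 0.08, interval -0.03 to 0.33). On their brightest probe sets the beta genes were low in the vehicle mice after withdrawal when set against the vehicle mice of the end, as given below. Whether the withdrawal vehicle mice were low or the testosterone mice high cannot be told apart from this comparison alone.

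No base gene was called after withdrawal. Psmc5 read 214, 272 and 253 in the vehicle mice and 236, 255 and 206 in the testosterone mice, with overlap (-0.08 ± 0.13, interval -0.36 to 0.20, adjusted p = 0.763). Psmc4 had one of the 3 largest changes, not called: it read 510.5, 502 and 546 in the vehicle mice and 562, 284 and 431 in the testosterone mice, with testosterone mouse 2 far below the others (log2 change -0.34 ± 0.26, adjusted p = 0.477, or -0.11 with the actin ratio in the model). The base as a whole had 0 of 9 called by limma (1 at an unadjusted p under 0.05), with a median of 0.11. In the lid, Psmd12 read 405, 359 and 372 in the vehicle mice and 456, 476 and 414 in the testosterone mice, again without overlap (log2 change 0.24 ± 0.09, adjusted p = 0.121).

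Of the activators, Psme4 read 508, 466 and 548 in the vehicle mice and 724, 560.1 and 608 in the testosterone mice after withdrawal. The groups did not overlap, and testosterone mouse 1 was the highest (log2 change 0.31 ± 0.12, adjusted p = 0.167). All 3 probe sets of Psme4 were higher here (0.31, 0.37 and 0.42), none called when each probe set was tested. The gene was called higher on the mean of its probe sets (0.37, adjusted p = 0.0207) and without probe sets that can match several transcripts (0.37, adjusted p = 0.0407). Psme3 read 74.5, 45.1 and 62.3 in the vehicle mice and 68.7, 79.1 and 79.6 in the testosterone mice, a change of 0.35 ± 0.18 that was not called (adjusted p = 0.289), with vehicle mouse 2 low. Psme1 read 595, 539 and 638 in the vehicle mice and 482, 514 and 491 in the testosterone mice. Every testosterone mouse lay below every vehicle mouse (log2 change -0.25 ± 0.12, adjusted p = 0.271), while interferon response genes summed to 2781 to 3386 in testosterone and 3930.4 to 4557 in vehicle mice. Psmf1 gave -0.05 and Psmg4 -0.27, neither called.

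The difference between the testosterone effects of the 2 times was tested directly, in a contrast that uses all 12 mice. Of the 42 genes 0 were called by limma, against 2.19% of all genes tested. An unadjusted p under 0.05 was reached by 6 of the 42, against 1580 of all 7217 genes tested. The largest differences were in base ATPase genes with high signals in the testosterone mice of the end. Psmc4 had the largest (withdrawal minus end -1.11 ± 0.36, adjusted p = 0.103), followed by Psmc5 (-0.66 ± 0.18, adjusted p = 0.0686). Psmd8 went the other way (0.46 ± 0.16, adjusted p = 0.117). Without withdrawal vehicle mouse 1 Psmc5 was called (-0.76, adjusted p = 0.0363), and without withdrawal testosterone mouse 1 so were Psmc4 (-1.33, adjusted p = 0.0392) and Psmd8 (0.55, adjusted p = 0.0467). When the fit held the actin ratio the differences were -0.05 for Psmc4, -0.61 for Psmc5 and 0.15 for Psmd8, so that Psmc4 no longer had the largest, and none was called. Without the ratio, the difference was below zero in 8 of 9 base genes (median -0.17) and above zero in 10 of 14 core genes (median 0.08). Of all genes tested 42.7% lay above zero. When probe sets were tested on their own, a probe set of Psme4 was called (0.69, adjusted p = 0.0427). It is not the one called at the end and gave -0.27 at the end and 0.42 after withdrawal, neither called. In the main fit, which reads 1 probe set per gene, a change called at 1 time and not at the other is not shown to differ between them for any of these genes.

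The times were also compared within each treatment, which reuses the mice of the comparisons above. In vehicle mice, 1 of 42 proteasome genes was higher after withdrawal than at the end and 1 was lower, against 11% and 6.83% of all genes tested. With each array centred on its median the split over all genes turned from 795 higher and 493 lower to 473 and 708, as the median of all genes moved from 0.06 to -0.04. Psmd11 rose: it read 995, 926 and 979 in vehicle mice at the end and 1372, 1447 and 1350.0 after withdrawal. The groups were far apart, and testosterone mice lay between them at the end (1109, 1099 and 1240.2) and near the upper group after withdrawal (1327, 1315 and 1335). The change was 1.44-fold (log2 change 0.52 ± 0.07, adjusted p = 0.000366). It held in all 24 alternative fits, and all 4 tested probe sets of Psmd11 were called higher, with changes of 0.35 to 0.80. The length of the withdrawal and the mice's age cannot be told apart in this comparison. The labels used here name no array run, so a part of it was not tested. In the same comparison 10 of 12 Kupffer cell and macrophage markers fell and 0 rose; their part in it was not tested.

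Psmb4 fell in vehicle mice, from 1341, 1386 and 1327 at the end to 1206, 1047 and 1062 after withdrawal. All withdrawal mice lay below all mice of the end (log2 change -0.29 ± 0.08, adjusted p = 0.0215). It was no longer called without vehicle mouse 1 (-0.30, adjusted p = 0.0511), vehicle mouse 2 (-0.27, adjusted p = 0.0559), withdrawal vehicle mouse 2 (-0.26, adjusted p = 0.0976) or withdrawal vehicle mouse 3 (-0.27, adjusted p = 0.0912). Nor was it called on the mean of its probe sets (-0.16, adjusted p = 0.194), with no variance trend (-0.29, adjusted p = 0.0584) or when the fit held the actin ratio (-0.20, adjusted p = 0.288). Of all genes tested 57.7% lay above zero in vehicle mice. The beta ring genes had 6 of 7 changes below zero (median -0.15), and the 42 genes had a median of -0.06 against 0.06 over all genes, or -0.16 against -0.04 with each array centred on its median. A second probe set of Psmb1 went the other way and was called higher when tested on its own (0.93), against -0.16 on its brightest. Those of Psmb3 and Psmb4 gave -0.23 and -0.02. Psmd8 was called lower without withdrawal vehicle mouse 1 (-0.40, adjusted p = 0.0295). Psme3 (-0.34) and Psmf1 (-0.34) had the largest changes after Psmd11 and were not called; when the fit held the actin ratio they were -0.20 and -0.18. For Psmf1 the 110.4, 94.9 and 103 of the vehicle mice at the end thus stood above the 82.2, 77.4 and 84.8 of the vehicle mice after withdrawal (adjusted p = 0.0659). It was called lower with each array centred on its median (-0.44, adjusted p = 0.0324) and after quantile normalization (-0.42, adjusted p = 0.0273).

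In testosterone mice 0 of 42 genes were higher after withdrawal and 2 were lower, against 5.57% and 5.31% of all genes. Over all genes the split was 402 higher and 383 lower, or 292 and 453 with each array centred on its median. The actin ratio was 2.03 to 2.19 in testosterone mice at the end and 1.47 to 1.82 after withdrawal, without overlap. Its part and those of time, the mice's age and stopping testosterone cannot be told apart here. Psmc5 went from 341, 337 and 324 at the end to 236, 255 and 206 after withdrawal. No mouse of the withdrawal group reached the group of the end, and Psmc5 fell 1.44-fold (log2 change -0.53 ± 0.13, adjusted p = 0.0181). It was no longer called without testosterone mouse 1 (-0.51, adjusted p = 0.0635), testosterone mouse 2 (-0.52, adjusted p = 0.0558) or withdrawal testosterone mouse 3 (-0.44, adjusted p = 0.084). Nor was it called with no filter on dim genes (-0.53, adjusted p = 0.0682) or when the fit held the actin ratio (-0.49, adjusted p = 0.383). Psmd2 went from 657, 656 and 677 to 523, 550.4 and 522, also without overlap (log2 change -0.32 ± 0.09, adjusted p = 0.0362), but was called in only 5 of 12 fits that left out 1 mouse. It was not called without any 1 of the 6 testosterone mice or without withdrawal vehicle mouse 2, with adjusted p-values of 0.0513 to 0.106. Quantile normalization (-0.28, adjusted p = 0.0539), no filter on dim genes (-0.32, adjusted p = 0.0522), no variance trend (-0.32, adjusted p = 0.0698) and the actin ratio (-0.43, adjusted p = 0.237) also ended the call. Psmc4, which went from 773, 566 and 819 to 562, 284 and 431, was not called (log2 change -0.79 ± 0.26, adjusted p = 0.0609), except without vehicle mouse 1 (-0.79, adjusted p = 0.0187), vehicle mouse 2 (-0.79, adjusted p = 0.0458) or withdrawal testosterone mouse 1 (-1.02, adjusted p = 0.0255). It was also called with each array centred on its median (-0.84, adjusted p = 0.045), on the mean of its probe sets (-0.52, adjusted p = 0.0253) and in a fit of the 2 groups alone (-0.79, adjusted p = 0.0453), whereas the change was -0.12 when the fit held the actin ratio. Psma6, with a change of 0.25, was called higher without vehicle mouse 2 (0.25, adjusted p = 0.0491). Psmd9, a chaperone of the base, gave 0.41 (adjusted p = 0.115), or 0.25 with that ratio. Of the 9 base genes 8 changes lay below zero (median -0.18), while 48.3% of all genes tested lay above zero.

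The immunoproteasome subunits, which replace the catalytic subunits in cells exposed to interferon, are given for comparison with the members. Psmb8, which takes the place of Psmb5, read 267, 196 and 242 in the vehicle mice and 113, 131 and 132 in the testosterone mice at the end. The groups were far apart, and Psmb8 fell 1.86-fold (log2 change -0.90 ± 0.13, adjusted p = 0.000308). Psmb10, which takes the place of Psmb7, read 301, 282 and 333 in the vehicle mice and 202, 192 and 178 in the testosterone mice, also without overlap, and fell (log2 change -0.68 ± 0.11, adjusted p = 0.000568). Psmb9, which takes the place of Psmb6, read 209, 123 and 146 in the vehicle mice and 114, 117 and 109.8 in the testosterone mice, without overlap but with vehicle mouse 1 far above the rest, and was not called (log2 change -0.46 ± 0.16, adjusted p = 0.0602). After withdrawal Psmb8 (log2 change -0.60 ± 0.13, adjusted p = 0.0109) and Psmb10 (log2 change -0.68 ± 0.11, adjusted p = 0.00102) were again lower and Psmb9 was not called (-0.34, adjusted p = 0.238). Psmb9 was called lower at the end without vehicle mouse 2 (-0.62, adjusted p = 0.0147), and Psmb8 after withdrawal was not called without withdrawal vehicle mouse 3 (-0.55, adjusted p = 0.056) or withdrawal testosterone mouse 3 (-0.51, adjusted p = 0.0609). When the fit held the actin ratio, the changes of Psmb8, Psmb10 and Psmb9 at the end were -0.96, -0.53 and 0.05, none called, while Psmb8 (-0.58) and Psmb10 (-0.72) were still called after withdrawal. Of the constitutive catalytic subunits, Psmb5 and Psmb6 were called at neither time in any fit that left out 1 mouse, and Psmb7 as given above. Interferon response genes, a list that includes Psmb8 and Psmb9, fell in 9 of 17 at the end and in 6 of 17 after withdrawal, and 0 rose.

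**Figure D5:**
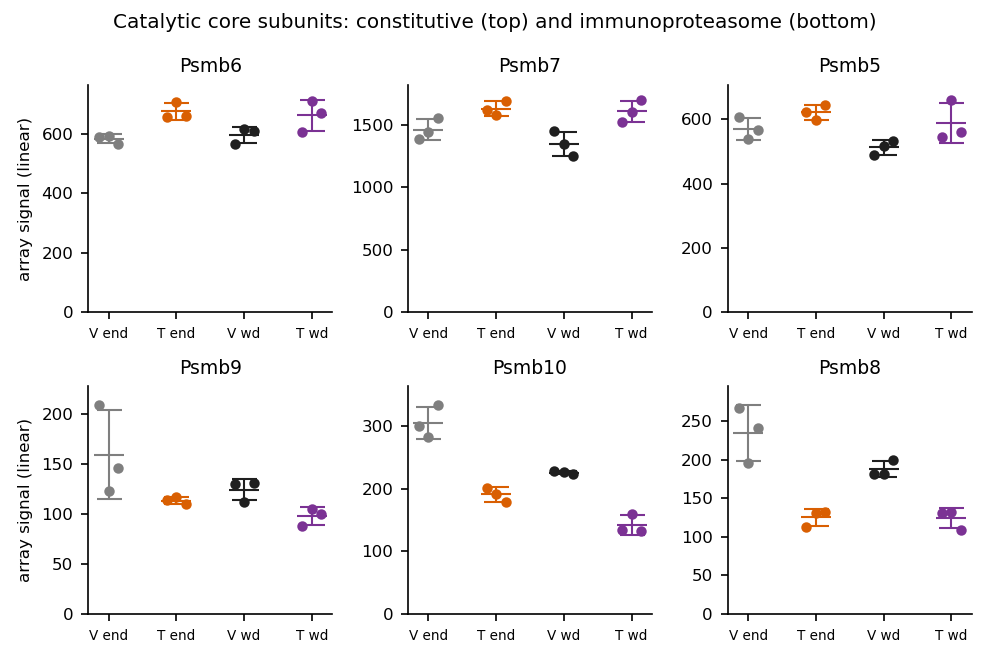
Linear array signals of the constitutive catalytic subunits (top) and the immunoproteasome subunits that replace them (bottom), 1 point per mouse, with the mean and SD of each group of 3. V is vehicle, T testosterone and wd withdrawal. Psmb8 fell from 267, 196 and 242 to 113, 131 and 132 at the end, while its constitutive counterpart Psmb5 overlapped between the same groups.

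Other genes of the pathway were counted by list, to be read beside the shares of all genes given above. No gene of these lists was called at the end when the fit held the actin ratio, which cannot be told apart from the treatment there. Changes then stayed near the value given below or became larger for Ubqln2 (0.81), Ube2k (0.63), Vcp (0.53), Ephx1 (0.86), Hmox1 (-1.03) and Nqo1 (-0.90). They became smaller for Ubxn4 (0.61), Gsr (0.56), Bach1 (0.38), Syvn1 (0.33), Ngly1 (0.18), Gclc (0.17), Txnl1 (0.09) and Ube2d3 (-0.05). Among 15 other proteins that bind the proteasome, 2 rose at the end and 0 fell, namely Ubqln2, a shuttle for ubiquitinated proteins (0.67), and Txnl1, a thioredoxin of the regulatory particle (0.41). In this list Pomp, the maturation factor of the core particle, was not called at the end (-0.09, adjusted p = 0.474) or after withdrawal (0.16). Among 6 genes of ubiquitin and its activation, 1 rose, the conjugating enzyme Ube2k (0.34), and 1 fell, the conjugating enzyme Ube2d3 (-0.41). After withdrawal 0 of these 15 and 0 of these 6 were called by limma (1 and 3 at an unadjusted p under 0.05). The conjugating enzyme Ube2r2 (log2 change -0.44 ± 0.12, adjusted p = 0.0504) was called lower without vehicle mouse 1 (-0.44, adjusted p = 0.0475), vehicle mouse 2 (-0.44, adjusted p = 0.0442), vehicle mouse 3 (-0.44, adjusted p = 0.0241) or withdrawal testosterone mouse 1 (-0.48, adjusted p = 0.0473), and at the end (0.31) it was called higher without vehicle mouse 3 (0.44, adjusted p = 0.0231). Its difference between the times was called (-0.74 ± 0.18, adjusted p = 0.0415), but in only 3 of 12 fits that left out 1 mouse, and not when the fit held the actin ratio (-0.71). The 9 mice whose removal ended that call were all 3 testosterone mice and vehicle mice 1 and 2 of the end, and mice 2 and 3 of both withdrawal groups, with adjusted p-values of 0.0711 to 0.109. Txnl1 was not called without vehicle mouse 1 (0.38, adjusted p = 0.0567), vehicle mouse 3 (0.32, adjusted p = 0.0614) or testosterone mouse 3 (0.34, adjusted p = 0.0667), Ube2k without vehicle mouse 2 (0.29, adjusted p = 0.0741) or testosterone mouse 2 (0.28, adjusted p = 0.111) and Ube2d3 without vehicle mouse 2 (-0.31, adjusted p = 0.135), testosterone mouse 1 (-0.39, adjusted p = 0.109), testosterone mouse 2 (-0.42, adjusted p = 0.0897) or testosterone mouse 3 (-0.44, adjusted p = 0.067).

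Vcp, the ATPase that extracts ubiquitinated proteins from membranes and complexes, and its cofactors had 4 of 12 genes higher and 0 lower at the end. Vcp itself read 775, 579 and 792 in the vehicle mice and 1062, 1061 and 1008 in the testosterone mice, without overlap (log2 change 0.56 ± 0.11, adjusted p = 0.00422). Its membrane anchor Ubxn4 read 246, 237 and 240.1 in the vehicle mice and 439, 485 and 455 in the testosterone mice (log2 change 0.93 ± 0.11, adjusted p = 4.05e-05), and the ubiquitin ligase Syvn1, of the same degradation route in the endoplasmic reticulum, read 76.4, 62.5 and 57.9 in the vehicle mice and 100.4, 148 and 112 in the testosterone mice (log2 change 0.86 ± 0.18, adjusted p = 0.00506). Ngly1, which strips sugar chains from such proteins and processes Nfe2l1, gave 0.28 and was not called without vehicle mouse 1 (0.26, adjusted p = 0.0949), vehicle mouse 3 (0.28, adjusted p = 0.0601), testosterone mouse 1 (0.27, adjusted p = 0.1), testosterone mouse 2 (0.28, adjusted p = 0.0837) or testosterone mouse 3 (0.29, adjusted p = 0.0609). After withdrawal 1 of 12 was higher, Syvn1 (1.10). The difference between the times was called for Ubxn4 (-0.80, adjusted p = 0.0153), but not without withdrawal vehicle mouse 2 (-0.73, adjusted p = 0.0503), withdrawal vehicle mouse 3 (-0.79, adjusted p = 0.0538) or withdrawal testosterone mouse 2 (-0.75, adjusted p = 0.0501), nor when the fit held the actin ratio (-0.39).

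Transcription factors of proteasome genes had 1 of 9 higher and 0 lower at the end. Nfe2l1 read 83.7, 47.2 and 73.2 in the vehicle mice and 71.8, 73.6 and 59.9 in the testosterone mice, with overlap (0.04 ± 0.22, interval -0.43 to 0.52). Nfe2l2, its relative that answers oxidative stress, read 274, 302 and 287 in the vehicle mice and 283, 285 and 284 in the testosterone mice. The groups overlapped at the end (-0.02 ± 0.09), whereas after withdrawal Nfe2l2 was lower in testosterone mice (log2 change -0.36 ± 0.09, adjusted p = 0.0297), but not without withdrawal vehicle mouse 2 (-0.40, adjusted p = 0.0517), withdrawal vehicle mouse 3 (-0.29, adjusted p = 0.146), withdrawal testosterone mouse 2 (-0.31, adjusted p = 0.124) or withdrawal testosterone mouse 3 (-0.37, adjusted p = 0.074), nor when the fit held the actin ratio (-0.31). The gene that rose was Bach1, a repressor at the same sites, which read 215, 233 and 216 in the vehicle mice and 331, 346 and 415 in the testosterone mice (log2 change 0.71 ± 0.12, adjusted p = 0.00132). Its difference between the times was called as well (-0.75 ± 0.17, adjusted p = 0.0415), but in only 3 of 12 fits that left out 1 mouse, and not when the fit held the actin ratio (-0.32). The same 9 mice as for Ube2r2 ended that call when left out, with adjusted p-values of 0.0556 to 0.107. Among 12 targets of Nfe2l2, 3 rose (Gsr 0.77, Gclc 0.69 and Ephx1 0.66) and 2 fell (Hmox1 -1.17 and Nqo1 -0.75). After withdrawal 0 of the 12 were higher and 1 was lower, Nqo1 (-0.72), which was not called without withdrawal vehicle mouse 2 (-0.75, adjusted p = 0.0515), withdrawal vehicle mouse 3 (-0.63, adjusted p = 0.0863), withdrawal testosterone mouse 2 (-0.68, adjusted p = 0.0658) or withdrawal testosterone mouse 3 (-0.73, adjusted p = 0.0512), nor when the fit held the actin ratio (-0.68).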

How the data were processed

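Livers of 12 mice, 3 in each of 4 groups, were measured on Affymetrix arrays. The authors deposited linear signal intensities for 22690 probe sets, made with GCOS by the MAS5 method per the submitters' processing notes, which carry no version here. These signals have a 2% trimmed mean near 100 on every array. The number of arrays limits the precision. No 2 arrays were identical, and arrays of a group correlated at 0.979 to 0.989.

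Signals under the floor of 4.84, the 25th percentile, were raised to it and log2 was taken. Genes were named from the platform annotation: 20380 probe sets carried 1 symbol, 691 several and 1555 none, beside 64 control probe sets. Each gene was read from its brightest probe set and tested if above the array median on at least 3 of 12 arrays. A limma 3.58.1 model of 4 group means, with eBayes and its trend option in R 4.3.3, was run on the resulting 7217 genes for 5 contrasts. Benjamini-Hochberg adjustment covered all 7217. The scripts were checked on simulated data.

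By rule, values per mouse are given for the catalytic subunits, the activators, up to 12 called members per contrast and, where fewer than 3 were called, the 3 largest changes; others, such as Psma2, Psma6, Psmd4 and Psmd6, were singled out after their values were seen. The members, the pathway lists and the marker lists were chosen with earlier results of these data known. Nothing in the labels pairs mice by replicate number. Deviations of same-numbered mice from their group means correlated at -0.194 to 0.00565 over 18 pairs. For mice of different groups and numbers the range was -0.153 to 0.183 over 36 pairs. With 3 mice a group, these values cannot show that the numbers carry no pairing. Alternatives were other scalings, floors, filters, probe set rules and fits, and leaving out each mouse.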

Additional observations from a re-analysis of the deposited data

How the results depend on the processing

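No direction of a reported result that passed the test was reversed in an alternative fit with 1 value per gene. Other single probe sets of Psmb3, Psme4 and Psmf1 went the other way at the end (-0.06, -0.27 and 0.34), none called. At the end the 10 proteasome genes called by limma were 0 with the actin 3' to 5' ratio in the fit, and 4 to 12 without 1 mouse. They were 7 with only the groups of the contrast and 12 when only genes above the median on all 12 arrays were tested. The remaining settings with 1 value per gene lay between these. After withdrawal the 2 called were 1 with median centring, 1 with quantile normalization, 1 with every probe set tested, 1 with only the groups of the contrast, 0 with no filter on dim genes, 0 with no variance trend, 0 with the actin ratio, and 0 to 3 without 1 mouse. Without probe sets that can match several transcripts, 3 were called after withdrawal. The difference between the times had 0 called, 1 with every probe set tested and 0 to 2 without 1 mouse. Vehicle mice after withdrawal against the end had 2, with 1 for the mean of a gene's probe sets, 1 with no variance trend, 1 with the actin ratio and 1 to 3 without 1 mouse. The number was 3 with median centring and 3 with quantile normalization. With every probe set tested, 8 of 65 probe sets were called there, 4 of them of Psmd11 and the others of Psmb1, Psmb4, Psmc2 and Psme4. Counts given above for that setting are also of probe sets, not of genes, and no share over all probe sets is given beside any of them. Testosterone mice had 2, with 1 for quantile normalization, 1 with no filter, 1 with no variance trend, 0 with the actin ratio and 0 to 4 without 1 mouse. They had 3 with median centring, with the mean of a gene's probe sets and with only the groups of the contrast. Without probe sets that can match several transcripts they also had 3. Where 0 were called, 8 members at the end, 15, 5 and 6 after withdrawal, in the order above, and 4 in testosterone mice had an unadjusted p under 0.05. Over all genes in the same fits the counts were 798 at the end, 1847, 1434 and 1203 after withdrawal and 1003 in testosterone mice. The fit with no filter held 12393 genes and the others 7217. The replicate number was also used as a block, although nothing in the labels pairs mice by number. In that fit 8 were called at the end (7 higher and 1 lower) and 1 after withdrawal. For the difference 0 were called, with 2 in vehicle mice and 1 in testosterone mice. The counts over all genes in that fit are given below. The block ended the calls of Psmf1 and Psmd11 at the end, Psmb4 after withdrawal and Psmd2 in testosterone mice. The cause of these shifts was not tested.

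Over all genes, 78 were called at the end with the actin ratio in the fit against 1258 without it (76 in both), 263 against 433 after withdrawal (248 in both), 1 against 158 for the difference (that 1 in both), 232 against 1288 in vehicle mice (227 in both) and 110 against 785 in testosterone mice (106 in both). The replicate block called 1025 against 1258 at the end (1014 in both) and 355 against 433 after withdrawal (340 in both). It called 55 against 158 for the difference (53 in both). In vehicle mice it called 1021 against 1288 (1000 in both) and in testosterone mice 624 against 785 (613 in both). Median centring turned the split of higher and lower genes from 680 and 578 to 748 and 444 at the end and from 198 and 235 to 264 and 167 after withdrawal. With 3 mice a group, a member that was not called may still have changed.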
